A study of Mus musculus with 12 samples.

Results

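A set of 5 genes of Schwann cells and myelin were followed in mouse ear skin: Sox10, Prx, Mbp, Pmp22 and Mag. They were taken by gene name from the array files, with every probe that carries the name. That gave 5 genes with 11 probes, of which 10 passed the background filter, out of 24080 genes and 37125 probes that passed it in all. The remaining Pmp22 probe was below background on all 12 arrays and was not tested.

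RNA of whole ear skin came from C57BL/6J mice of 5 genotypes and was measured on one-colour arrays of 60-base probes. For the imiquimod (IMQ) groups, ears received 62.5 mg of cream that contained imiquimod, a ligand of the receptor TLR7, at 5% and were sampled 4 h later. They held 1 array each of wild type (WT), Tlr7-/- and Tlr9-/- and 2 arrays each of Tlr7-/-Tlr9-/- and Card14-/-. The untreated groups held 1 array of each of the same genotypes. No group received cream without imiquimod, so effects of imiquimod, of the cream and of handling cannot be told apart. Every array carried RNA pooled from 6 to 8 mice. The labels do not say whether repeat arrays share a pool, so they were averaged. The p-values of the average response rest on the spread of that response over the 5 genotypes. Differences between genotypes, pools, arrays and slides all enter that spread, and variation between single mice was not measured. Ages and the way the alleles were made are likewise not stated in the labels.

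Between 60.1% and 65.7% of the 59305 spots on each array were well above background, with 0 saturated spots. Before normalization the arrays' 75th percentile of signal was 527 to 779 on the IMQ arrays and 1070 to 1236 on the untreated arrays. Slide 2 carried the 4 IMQ arrays of Card14-/- and Tlr7-/-Tlr9-/- mice and slide 1 the 8 other arrays, so within these 2 genotypes treatment and slide cannot be told apart. The knockouts were checked on the probe of highest mean. Tlr7 read 4.03 to 5.85 on the 5 arrays that lack it and 7.36 to 8.12 on the 7 others (log2 signal). Card14 read 9.62 to 9.89 on the 3 arrays of Card14-/- mice and 10.82 to 11.65 on the 9 others. Tlr9 read 10.95 to 11.33 on the 5 arrays labelled as lacking it and 11.05 to 11.39 on the 7 others, so this probe does not separate that label.

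Schwann cells are the glia of peripheral nerves. In the skin, some wrap single axons in compact myelin and others hold bundles of thin sensory axons without myelin. SOX10, a transcription factor of the neural crest lineage, is needed for Schwann cells to form and to stay differentiated, and together with EGR2 it switches on myelin genes. Melanocytes, which come from the same lineage, also express Sox10. Periaxin (Prx) is a scaffold protein that ties the Schwann cell membrane to the basal lamina, myelin basic protein (Mbp) holds the cytoplasmic faces of the myelin membrane together, the peripheral myelin protein coded by Pmp22 is a membrane protein of compact myelin, and myelin-associated glycoprotein (Mag) lies on the myelin membrane that faces the axon. Pmp22 is also made by fibroblasts and epithelia, and the Mbp locus gives further transcripts outside myelin.

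Promoter sequences of Prx and Mag are shown first, and bases of 1 Pmp22 probe are shown with that gene further below. Whether promoter letters bear on differences in response between genes was not tested. Promoters of 3 of the 5 members, Prx, Pmp22 and Mag, were matched in the RefSeq table for GRCm38.p6, and the 250 bases before each start were searched on both strands for the SOX core ACAAAG, the EGR core GTGGGCG and the E-box CANNTG. No overlap between motifs was found in a printed window. Of the 32851 promoters in the table, 16.5% held the SOX core, 7.02% the EGR core and 66.2% the E-box. Below are the Prx promoter at chr7:27499074-27499323 on the plus strand, which holds neither core and so has no capitals, and the first of 3 Mag promoters at chr7:30914864-30915113 on the minus strand, with the SOX core on the opposite strand in capitals, 126 bases before the start. Each runs 5′ to 3′ along its gene.
Prx promoter: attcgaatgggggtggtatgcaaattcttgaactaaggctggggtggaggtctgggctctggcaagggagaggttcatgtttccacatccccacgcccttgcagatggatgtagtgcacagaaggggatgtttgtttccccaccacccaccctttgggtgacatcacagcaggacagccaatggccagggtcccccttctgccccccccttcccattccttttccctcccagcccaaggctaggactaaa
Mag promoter: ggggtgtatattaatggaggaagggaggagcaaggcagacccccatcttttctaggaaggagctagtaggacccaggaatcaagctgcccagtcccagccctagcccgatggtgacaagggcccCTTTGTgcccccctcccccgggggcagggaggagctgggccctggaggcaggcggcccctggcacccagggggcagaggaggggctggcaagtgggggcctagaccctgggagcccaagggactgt
The second Mag promoter overlaps the first and holds the same match, while the third Mag promoter, the Prx promoter and the 4 Pmp22 promoters held no SOX core, and none of these 8 windows held the EGR core. A match is a run of letters and no evidence of binding.

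Sox10, the transcription factor among the members, was the member with the largest change. Its probe (A_55_P2740763, transcript NM_011437) lies at chr15:78985343-78985402 on the minus strand of the mm9 build, which the files use. The log2 signal of Sox10 after IMQ was 7.86 in WT, 7.77 in Tlr7-/-, 7.68 in Tlr9-/-, 7.73 and 7.71 in Tlr7-/-Tlr9-/- and 8.17 and 8.20 in Card14-/-, against untreated values of 9.21 in WT, 8.97 in Tlr7-/-, 8.68 in Tlr9-/-, 8.96 in Tlr7-/-Tlr9-/- and 9.59 in Card14-/-. Every IMQ array was below every untreated array, and Card14-/- skin read highest in both states. Over the 5 genotypes Sox10 averaged 7.84 ± 0.20 after IMQ and 9.08 ± 0.34 without treatment (SD, n = 5 groups each), a response of -1.24 ± 0.09 (log2, SE), or 2.36-fold lower. The limma fit with genotype as a block gave an adjusted p = 0.00606 over all 37125 probes, and 1.22% of those probes fell as far or farther. Sox10 stayed past the threshold of 0.05 under all 16 alternative settings, with responses of -1.30 to -1.03. In bulk skin, fewer cells of a type and less RNA per cell cannot be told apart, here and in all that follows.

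**Figure D1:**
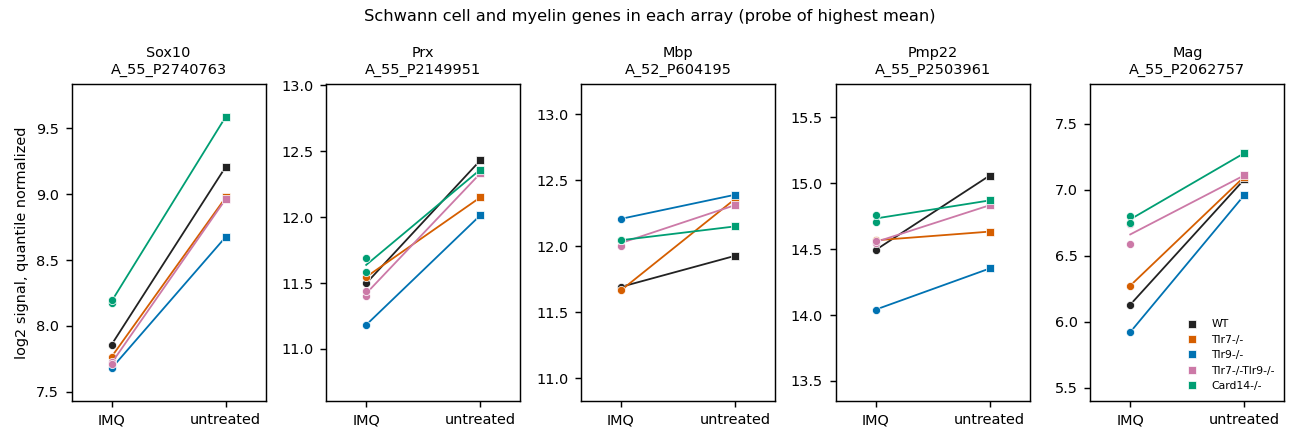
Log2 signal (quantile normalized, vertical axis) of the probe of highest mean of each member on the IMQ arrays (left, circles) and the untreated arrays (right, squares), coloured by genotype; lines join the group means of a genotype, and each panel has its own range. All Sox10, Prx and Mag values are lower after IMQ than on any untreated array, while those of Mbp and Pmp22 overlap.

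Of the 5 members, each read on its probe of highest mean, Sox10, Prx and Mag were called lower, 3 genes in all, where 14.4% of the 24080 genes were called lower and 9.92% higher. By probe, 6 of the 10 tested probes of the members were called lower, 1 higher and 3 not called, where 13.5% of the 37125 probes were called lower and 10.6% higher. For 6 of the 10 member probes every IMQ group value lay below every untreated value, which held for 14% of all probes. The median average response of all genes was -0.08. Scaling each array by its 75th percentile instead put the median of all probes at 0.02, against -0.07 in the quantile normalized values, and changed the calls over all probes to 4092 lower and 5124 higher, against 5025 lower and 3948 higher; the same 3 member genes, Sox10, Prx and Mag, were called lower under it.

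Prx, the periaxin gene, fell on both of its probes. On the brighter one (A_55_P2149951, NM_019412, chr7:28304999-28305058, plus strand, mm9) the log2 signal after IMQ was 11.50 in WT, 11.55 in Tlr7-/-, 11.18 in Tlr9-/-, 11.40 and 11.44 in Tlr7-/-Tlr9-/- and 11.69 and 11.59 in Card14-/-, against untreated values of 12.43 in WT, 12.15 in Tlr7-/-, 12.01 in Tlr9-/-, 12.33 in Tlr7-/-Tlr9-/- and 12.36 in Card14-/-. The groups did not overlap, and the highest IMQ array (11.69) lay under the lowest untreated one (12.01). The means were 11.46 ± 0.17 after IMQ and 12.26 ± 0.17 untreated (SD, n = 5), a response of -0.80 ± 0.08 (SE), or 1.74-fold lower (limma, adjusted p = 0.0088), and the call held under all 16 alternatives.

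The other Prx probe (A_52_P315837, chr7:28304333-28304392) lies 0.607 kb away in the same transcript. It read 7.59 to 8.54 on the IMQ arrays and 8.82 to 9.10 on the untreated ones, again without overlap, and its response was -0.74 ± 0.13 (SE, limma adjusted p = 0.0161). Without the Tlr7-/- pair this second probe had -0.77 and an adjusted p = 0.0519 in limma. The difference in response between both Prx probes was -0.06 ± 0.31 (SD, n = 5 genotypes).

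Mag, the adhesion molecule of the axon-facing membrane, fell on the brighter of its probes (A_55_P2062757, NM_010758, chr7:31684202-31684261, minus strand, mm9). The log2 signal after IMQ was 6.13 in WT, 6.27 in Tlr7-/-, 5.92 in Tlr9-/-, 6.74 and 6.59 in Tlr7-/-Tlr9-/- and 6.80 and 6.75 in Card14-/-, against untreated values of 7.08 in WT, 7.10 in Tlr7-/-, 6.96 in Tlr9-/-, 7.11 in Tlr7-/-Tlr9-/- and 7.28 in Card14-/-. No IMQ value reached an untreated one, and the 4 IMQ arrays on slide 2 read higher than the 3 on slide 1. The means were 6.35 ± 0.36 after IMQ and 7.11 ± 0.11 untreated (SD, n = 5), a response of -0.75 ± 0.12 (SE), or 1.69-fold lower (limma, adjusted p = 0.0139). The call was lost without the Tlr7-/- pair (-0.74, adjusted p = 0.0507 in limma) and without the Tlr9-/- pair (-0.68, adjusted p = 0.0575 in limma). In the genotypes with all arrays on slide 1 the response of Mag was -0.94 (limma, adjusted p = 0.0222), and with normexp background correction it was -0.44 (limma, adjusted p = 0.00661).

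The other Mag probe (A_55_P2647868), designed to the transcript ENSMUST00000186422, lies 8.36 kb away at chr7:31692616-31692675 on the minus strand. Its log2 signal after IMQ was 7.19 in WT, 7.20 in Tlr7-/-, 7.19 in Tlr9-/-, 6.73 and 6.40 in Tlr7-/-Tlr9-/- and 6.06 and 6.44 in Card14-/-, against untreated values of 6.17 in WT, 6.23 in Tlr7-/-, 6.20 in Tlr9-/-, 6.47 in Tlr7-/-Tlr9-/- and 6.63 in Card14-/-. The IMQ arrays on slide 1 were above all untreated arrays, while those on slide 2 overlapped them. The average response was 0.54 ± 0.24 (SE, limma adjusted p = 0.15), with a mean of 0.99 in the genotypes read on slide 1 alone and -0.14 in those whose IMQ arrays lay on slide 2. In the slide 1 genotypes alone the response of 0.99 had an adjusted p = 0.0222 in limma. Without the Card14-/- pair it was 0.77 (limma, adjusted p = 0.0498). The part of slide in this split cannot be told apart from genotype.

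Mbp, the gene of myelin basic protein, was read on 3 probes, and the brightest of them was not called. That probe (A_52_P604195, NM_001025245, chr18:82727929-82727988, mm9) had a log2 signal after IMQ of 11.69 in WT, 11.66 in Tlr7-/-, 12.21 in Tlr9-/-, 11.999 and 12.05 in Tlr7-/-Tlr9-/- and 12.04 and 12.05 in Card14-/-, against untreated values of 11.93 in WT, 12.36 in Tlr7-/-, 12.39 in Tlr9-/-, 12.31 in Tlr7-/-Tlr9-/- and 12.15 in Card14-/-. The groups overlapped, with untreated WT below 5 of the IMQ arrays, although each genotype had its lower value after IMQ. The response was -0.30 ± 0.11 (SE, 95% interval -0.56 to -0.04 before adjustment, limma adjusted p = 0.0865).

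Further 3′ in the locus, both other Mbp probes were called lower. A_55_P2889696 (NM_010777, chr18:82754032-82754091) read 7.96 to 8.90 on the IMQ arrays and 9.03 to 9.44 on the untreated ones, with a response of -0.76 ± 0.13 (SE, limma adjusted p = 0.0164), or 1.70-fold lower. A_52_P329451 (NM_010777, chr18:82742266-82744570) spans 2305 bases of the genome with 60 bases of sequence, so it crosses at least 1 splice junction. It read 6.93 to 7.39 on the IMQ arrays and 7.33 to 7.68 on the untreated ones, where 2 IMQ arrays, 1 of Tlr7-/-Tlr9-/- and 1 of Card14-/-, lay above the lowest untreated one, and its response was -0.43 ± 0.09 (SE, limma adjusted p = 0.0239). Leaving out a genotype ended several of these calls: the first lost its call without the Tlr9-/- pair (-0.67, limma adjusted p = 0.0633), and the second without the WT pair (-0.36, limma adjusted p = 0.0503), the Tlr7-/- pair (-0.43, 0.075), the Tlr9-/- pair (-0.44, 0.0843) or the Tlr7-/-Tlr9-/- pair (-0.46, 0.051). The brightest probe lies 14.3 kb from the junction-spanning one, and that one 9.46 kb from the third.

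Pmp22, the compact myelin protein also made outside nerve, was not called on its brighter probe and was called higher on the other tested one. The brighter one (A_55_P2503961, NM_001302260, chr11:62972929-62972988, plus strand, mm9) had a log2 signal after IMQ of 14.49 in WT, 14.57 in Tlr7-/-, 14.04 in Tlr9-/-, 14.54 and 14.56 in Tlr7-/-Tlr9-/- and 14.71 and 14.76 in Card14-/-, against untreated values of 15.06 in WT, 14.63 in Tlr7-/-, 14.35 in Tlr9-/-, 14.83 in Tlr7-/-Tlr9-/- and 14.87 in Card14-/-. Both states overlapped widely, and the Tlr7-/- pair differed by only 0.07. The response was -0.27 ± 0.10 (SE, limma adjusted p = 0.0861), and -0.16 with arrays scaled by the 75th percentile, where Tlr7-/- and Card14-/- had 0.00 and 0.01 on this probe.

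The other tested Pmp22 probe (A_55_P2040168, same transcript) lies 1.07 kb upstream along the transcript, at chr11:62971862-62971921 on the plus strand, and covers the end of the coding sequence. Its bases are shown up to the stop codon, chr11:62971862-62971917 (mm9), with the stop codon in capitals.
Pmp22 coding end: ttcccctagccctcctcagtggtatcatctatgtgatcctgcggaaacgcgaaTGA
On this probe the log2 signal after IMQ was 12.16 in WT, 11.85 in Tlr7-/-, 11.38 in Tlr9-/-, 11.42 and 11.36 in Tlr7-/-Tlr9-/- and 11.44 and 11.43 in Card14-/-, against untreated values of 11.48 in WT, 11.12 in Tlr7-/-, 10.81 in Tlr9-/-, 11.02 in Tlr7-/-Tlr9-/- and 11.26 in Card14-/-. Each genotype was higher after IMQ, but across genotypes the states overlapped through untreated WT. The response was 0.50 ± 0.11 (SE), or 1.42-fold higher (limma, adjusted p = 0.0244). It lost its call without the WT pair (0.46, limma adjusted p = 0.0684), the Tlr7-/- pair (0.45, 0.0767), the Tlr9-/- pair (0.49, 0.0909) or the Tlr7-/-Tlr9-/- pair (0.54, 0.0523).

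**Figure D2:**
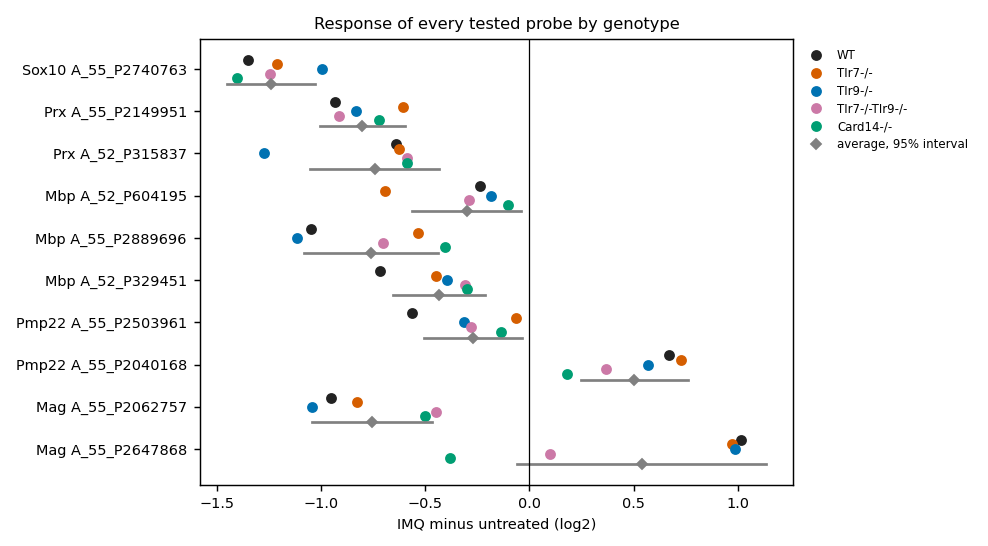
Response (IMQ minus untreated, log2, horizontal axis) of the 10 tested member probes in each genotype, as coloured points, with the average over genotypes and its 95% interval before adjustment for many probes in grey below them. The probes of Sox10, Prx and Mbp lie left of 0 in all genotypes, while Pmp22 has 1 probe on either side. The brighter Mag probe lies left of 0 in all genotypes. The other Mag probe lies right of 0 except in Card14-/- (-0.38), and its interval, -0.06 to 1.14, spans 0.

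Because probes of 1 gene can read different transcripts, the response of each pair of probes of a gene was compared across the 5 genotypes, a comparison added after the values were seen. The brighter Pmp22 probe minus the coding-end probe gave -0.78 ± 0.33 (SD, n = 5), below 0 in 5 of 5 genotypes. For the Mag probes the same difference was -1.29 ± 0.89 (SD, n = 5), also below 0 in 5 of 5. An exact two-sided sign-flip test gave p = 0.0625 for each, the smallest p that 5 genotypes allow, and 0.125 after adjustment over the 6 pairs compared. The Mbp probes A_55_P2889696 and A_52_P329451 also differed the same way in 5 of 5 genotypes (-0.33 ± 0.26, SD, n = 5, exact p = 0.0625), and the 3 remaining pairs had exact p of 0.125 to 0.8125. None of the 6 could pass 0.05 in this design.

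Read by genotype, with no test since each untreated group is 1 array, Sox10 had responses of -1.35 in WT, -1.21 in Tlr7-/-, -0.997 in Tlr9-/-, -1.24 in Tlr7-/-Tlr9-/- and -1.40 in Card14-/-. Prx on its brighter probe had -0.93 in WT, -0.60 in Tlr7-/-, -0.83 in Tlr9-/-, -0.91 in Tlr7-/-Tlr9-/- and -0.72 in Card14-/-. Mag on its brighter probe had -0.95 in WT, -0.83 in Tlr7-/-, -1.04 in Tlr9-/-, -0.45 in Tlr7-/-Tlr9-/- and -0.50 in Card14-/-. On these probes the 3 genes had lower values after IMQ in each genotype. Mag was closest to 0 in the genotypes whose IMQ arrays lay on slide 2. The other Mag probe had 1.02 in WT, 0.97 in Tlr7-/-, 0.99 in Tlr9-/-, 0.10 in Tlr7-/-Tlr9-/- and -0.38 in Card14-/-.

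Within a genotype, a log2 difference of 1 or more counted as a call. Each gene was read on its probe of highest mean. Over 5 genes and 5 genotypes, 5 of 25 pairs were at least 1 lower: Sox10 in WT, Tlr7-/-, Tlr7-/-Tlr9-/- and Card14-/-, and Mag in Tlr9-/-. The share of all genes that far down was 8.72% in WT, 5.63% in Tlr7-/-, 5.91% in Tlr9-/-, 4.01% in Tlr7-/-Tlr9-/- and 2.48% in Card14-/-. Sox10 in Tlr9-/- missed the limit by under 0.01. All 25 pairs were below 0, and 23 of 25 were when arrays were scaled by the 75th percentile, Pmp22 in Tlr7-/- and Card14-/- being the exceptions. By probe, 8 of the 10 tested ones were below 0 in all 5 genotypes, as were 24.3% of all probes.

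The members differed in how their responses varied. The SD of the 5 responses was 0.16 for Sox10 and 0.14 for the brighter Prx probe, against a median of 0.29 over all probes. It was 0.23 for the brightest Mbp probe, 0.19 for the brighter Pmp22 probe, 0.27 for the brighter Mag probe and 0.64 for the other Mag probe. Between the repeat arrays, of which the labels do not say whether they are separate pools, the SD for Sox10 was 0.01 in Tlr7-/-Tlr9-/- and 0.02 in Card14-/-. For the Mbp probe A_52_P329451 it was 0.20 in Tlr7-/-Tlr9-/-, above the SD of 0.17 of its 5 responses, and 0.08 in Card14-/-. The other Mag probe had 0.24 in Tlr7-/-Tlr9-/- and 0.27 in Card14-/-. On each tested probe but that Mbp probe, the SD between repeats was below that of the responses in both genotypes.

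Imiquimod is a ligand of TLR7, so the design implies a comparison of the response in Tlr7-deficient genotypes (Tlr7-/- and Tlr7-/-Tlr9-/-) with that in WT, Tlr9-/- and Card14-/-. Sox10 averaged -1.23 in Tlr7-deficient mice and -1.25 in the others, a difference of 0.02 ± 0.20 (SE, 95% interval -0.49 to 0.54 before adjustment). Prx averaged -0.76 in Tlr7-deficient mice and -0.83 in the others, a difference of 0.07 ± 0.19 (interval -0.41 to 0.56). For Mag on its brighter probe the means were -0.64 in Tlr7-deficient mice and -0.83 in the others, a difference of 0.19 ± 0.25 (interval -0.45 to 0.84).

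Both members not called on average were compared in the same way. Mbp on its brightest probe averaged -0.49 in Tlr7-deficient mice and -0.17 in the others, a difference of -0.32 ± 0.20 (SE, interval -0.82 to 0.19). Both other Mbp probes had differences on the other side of 0, 0.24 ± 0.28 for A_55_P2889696 and 0.09 ± 0.20 for A_52_P329451 (SE). Pmp22 on its brighter probe averaged -0.17 in Tlr7-deficient mice and -0.34 in the others, a difference of 0.17 ± 0.21 (interval -0.37 to 0.70). Every member probe had an adjusted p of 0.9996 in limma. Over all probes 0 were called (0%), and 2.84% had an unadjusted p under 0.05. The intervals for Sox10, Prx and Mag leave room for differences of 0.4 or more in either direction, so likeness of the genotypes is not shown.

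In untreated skin, where each genotype has 1 array and no test is possible, Sox10 was lowest in Tlr9-/- at 8.68, followed by Tlr7-/-Tlr9-/- at 8.96, Tlr7-/- at 8.97, WT at 9.21 and Card14-/- at 9.59. Tlr7-/-Tlr9-/- and Tlr7-/- lay closer together than the median SD of repeat arrays, which was 0.05. The range over untreated genotypes was 0.91 for Sox10, 0.42 for the brighter Prx probe, 0.46 for the brightest Mbp probe, 0.71 for the brighter Pmp22 probe and 0.32 for the brighter Mag probe. Untreated Tlr9-/- was also lowest for Prx, Pmp22 and Mag on those probes, but highest for Mbp. The brighter Prx probe and Mbp on its brightest probe thus put the genotypes in different orders: Prx had WT highest at 12.43, while Mbp had WT lowest at 11.93. These orders depended on the probe. Untreated WT was highest on both other Mbp probes, at 9.44 (A_55_P2889696) and 7.68 (A_52_P329451), and lowest on the other Prx probe, at 8.82. Untreated Tlr9-/- was lowest on A_52_P329451, at 7.33.

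The other genes of peripheral myelin were called lower more often than higher. Of 20 listed genes of myelin structure, 19 were tested. In the average response 10 of them fell, 2 rose and 7 were not called, with a median of -0.50, where 14.4% of all genes were called lower and 9.92% higher and the median was -0.08. The claudin of Schwann cell tight junctions, Cldn19, fell by 0.99 ± 0.09 (log2, SE, limma adjusted p = 0.00769). Drp2, the partner of periaxin at the Schwann cell surface, had -0.63 ± 0.07 (limma, adjusted p = 0.00882), with -0.49 and 0.24 on other probes.

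Pllp, which codes for plasmolipin of the myelin membrane, fell by 0.91 and Cadm4, an adhesion molecule by which Schwann cells hold axons, by 0.58. The 2 that rose were Fa2h, an enzyme that hydroxylates fatty acids of myelin and of skin lipids, by 0.57, and the tetraspanin Tspan2, by 0.44. Tspan2 was named after its value was seen, and the count of 2 higher was 0 without the WT, the Tlr7-/- or the Tlr9-/- pair. The count of myelin genes called lower was 3 without the Tlr7-/- pair and 2 without the Tlr9-/- pair, and 6 without the WT or the Tlr7-/-Tlr9-/- pair, with fewer calls over all probes in each of these fits as well (2708, 882, 4156 and 5101, against 8973 with all pairs).

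Among the factors and signals that guide Schwann cells, 18 of 20 listed genes were tested, of which 7 fell, 0 rose and 11 were not called, with a median of -0.29. Over all genes 14.4% were called lower and 9.92% higher. Gfra3, a receptor subunit for the nerve growth signal artemin, fell by 1.01 ± 0.17 (log2, SE, limma adjusted p = 0.0158). Ngfr, the low-affinity neurotrophin receptor p75, fell by 0.85 ± 0.08 (limma, adjusted p = 0.00802). Erbb3, the receptor by which Schwann cells sense neuregulin, had -0.60 ± 0.11 (limma, adjusted p = 0.0192) on its brighter probe and 0.50 on the other. Egr2, the partner of SOX10 at myelin genes, was not called: it averaged 12.92 after IMQ and 13.09 untreated, a response of -0.17 ± 0.08 (limma, adjusted p = 0.159).

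Pou3f1, a transcription factor that drives Schwann cells towards myelination and that keratinocytes also express, fell by 0.52. Adam22, a receptor of the glial ligand LGI4, fell by 0.43. Nab2, a co-regulator of EGR2, fell by 0.27 on its brighter probe (limma, adjusted p = 0.0498), while its other probe was higher after IMQ, by 0.23. The list count was 4 without the WT pair, 5 without the Tlr7-/-Tlr9-/- pair, and 1 without either the Tlr7-/- or the Tlr9-/- pair. Calls over all probes were fewer in these fits as well (4156, 5101, 2708 and 882, against 8973 with all pairs). The list count was 11 with 12 arrays and slide as a block. That fit counts repeats as independent and called 18461 of all 37125 probes.

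Of 15 markers of non-myelinating and immature Schwann cells, all tested, 5 fell, 0 rose and 10 were not called, with a median of -0.24. The shares of all genes were 14.4% called lower and 9.92% called higher. Sema3b, a secreted guidance protein, fell by 0.55, the adhesion molecule L1cam by 0.53 and Apod, a lipid carrier of nerve and skin fibroblasts, by 0.45. Col28a1 and Fabp7 were called lower too but were above background on only 5 and 6 arrays, so no size is given. Cdh19, a cadherin of the Schwann cell lineage, averaged 4.84 after IMQ and 5.46 untreated, a response of -0.62 ± 0.20 (SE, limma adjusted p = 0.0659). S100b had -0.07 and was not called. The count was 3 without the WT or the Tlr7-/-Tlr9-/- pair, 2 without the Tlr7-/- pair and 0 without the Tlr9-/- pair, where 404 probes were called lower in all. With arrays scaled by the 75th percentile 3 were called lower and the median was -0.17. With 12 arrays as separate values 8 were called lower. That fit counts repeats as independent and called 14051 probes in all.

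Axon and sensory nerve genes had a median of 0.07. Of 13 listed genes 9 were tested, 1 fell, 1 rose and 7 were not called. These counts lie near the shares of all genes, 14.4% called lower and 9.92% called higher. Uchl1, an abundant neuronal hydrolase, fell by 0.62 ± 0.11 (SE, limma adjusted p = 0.016). Calca, the gene of the sensory peptide CGRP, was called higher but was above background on only 6 arrays, so no size is given. The count of 1 lower was 0 without the Tlr7-/- pair and without the Tlr9-/- pair, so the Uchl1 call was lost there. The count of 1 higher was 0 without the WT, Tlr9-/-, Tlr7-/-Tlr9-/- or Card14-/- pair. Each of these fits also had fewer calls over all probes, such as 2708 without the Tlr7-/- pair, against 8973 with all pairs. The difference between the glial and the axonal lists was not tested.

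**Figure D3:**
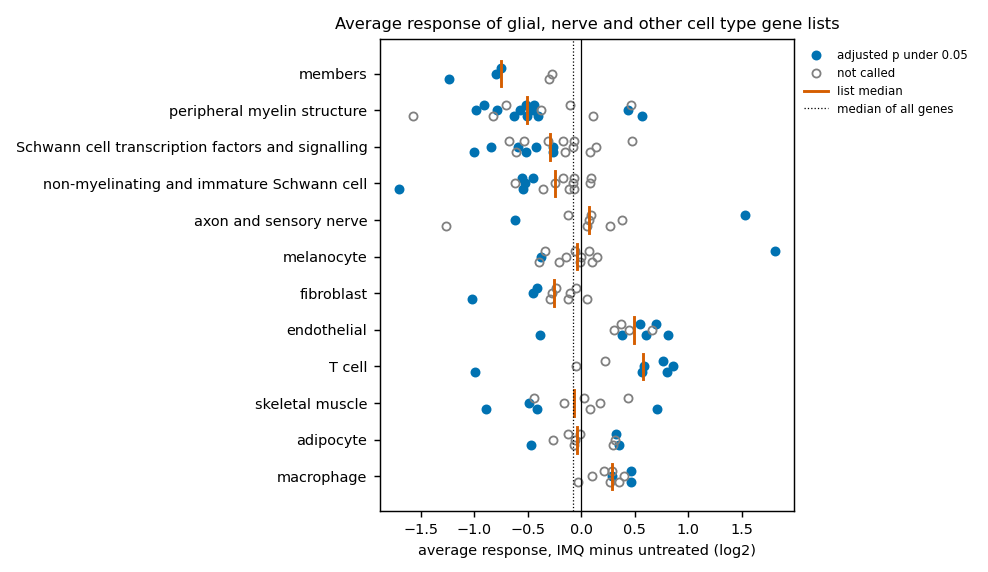
Average response (IMQ minus untreated, log2, horizontal axis) of each tested gene in the lists, on its probe of highest mean, filled where the adjusted p was under 0.05 and open where not; orange bars are list medians and the dotted line is the median of all genes, -0.08. The medians of the 3 glial lists are -0.50, -0.29 and -0.24, beside -0.26 for fibroblasts, -0.04 for melanocytes and 0.07 for axons; genes above background on few arrays, Col28a1, Fabp7 and Calca among them, are drawn at their fitted value.

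Sox10 is also a melanocyte gene, so markers of that cell type were read beside it. Of 12 melanocyte markers, all tested, 1 fell, 1 rose and 10 were not called, with a median of -0.04, and the mean level of the list was 7.30 to 8.59 on the IMQ groups and 7.62 to 8.54 on the untreated ones. All 12 passed the background filter. The counts of 1 lower and 1 higher lie near the shares of all genes, 14.4% called lower and 9.92% called higher. Mitf, the master factor of melanocytes, averaged 10.86 after IMQ and 11.23 untreated, a response of -0.37 ± 0.08 (SE, limma adjusted p = 0.0258), with other probes at -0.21 to 0.09. Trpm1 was called higher by 1.81 on 1 of its 5 tested probes, the others having -0.18 to 0.61. The pigment enzymes were not called: Dct had 0.07 ± 0.22 and Tyrp1 -0.06 ± 0.34 (SE, limma adjusted p = 0.829 and 0.907).

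By genotype the melanocyte median changed sign and the Sox10 response did not. The list median was -0.74 in WT, 0.18 in Tlr7-/-, -0.51 in Tlr9-/-, 0.06 in Tlr7-/-Tlr9-/- and 0.68 in Card14-/-, while Sox10 lay between -1.40 and -0.997 in all genotypes. In Card14-/-, where treatment and slide cannot be told apart, the Sox10 response was -1.40 and the melanocyte median was on the other side of 0. The part of melanocytes in the Sox10 response was not tested. The median of the myelin structure list was -0.49 in WT, -0.47 in Tlr7-/-, -0.57 in Tlr9-/-, -0.51 in Tlr7-/-Tlr9-/- and -0.27 in Card14-/-.

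**Figure D4:**
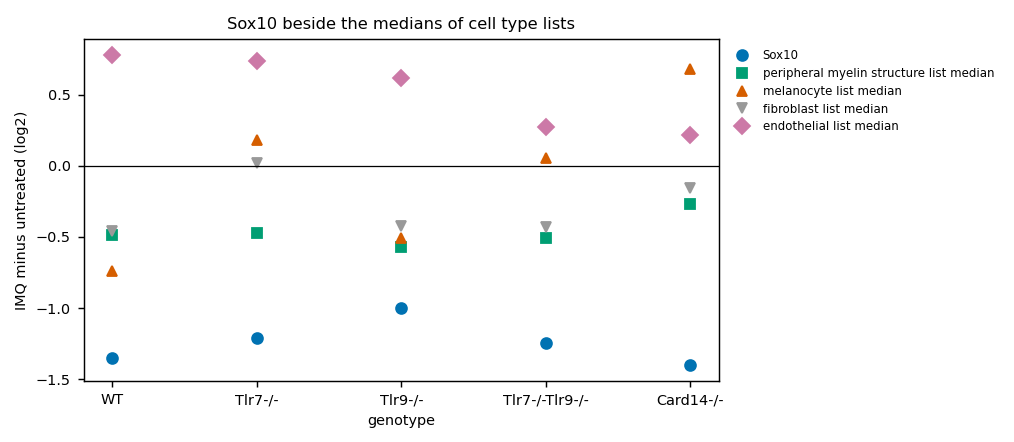
Response of Sox10 (circles) in each genotype (horizontal axis), beside the median response of the myelin structure, melanocyte, fibroblast and endothelial lists (IMQ minus untreated, log2, vertical axis). Sox10 lies between -1.40 and -0.997 throughout, the myelin median between -0.57 and -0.27, and the melanocyte median between -0.74 and 0.68.

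Markers of other cells of the ear moved in both directions. The counts below stand beside 14.4% of all genes called lower and 9.92% called higher. Fibroblasts also make Pmp22, and their markers had a median of -0.26, with 3 of 10 lower (Postn by 1.02, Pdgfra by 0.45 and Dcn by 0.41) and 0 higher, and mean levels of 13.27 to 14.23 after IMQ and 13.70 to 14.71 untreated. Endothelial markers had a median of 0.49, with 1 lower (Tek) and 5 higher of 10, among them Cldn5 at 0.81, and mean levels of 9.61 to 10.35 after IMQ and 9.19 to 9.66 untreated. T cell markers had a median of 0.57, with 1 lower (Cd5) and 5 higher of 8 tested, and macrophage markers 0.29, with 0 lower and 3 higher of 10. Skeletal muscle had -0.07, with 3 lower and 1 higher of 10, and adipocytes -0.04, with 1 lower and 2 higher of 10. The part of any change in these cells in the values of the members was not tested.

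For each member, on its probe of highest mean, the 3 named genes with the most similar levels over the 10 group values were found by Pearson's r among 7094 genes with an SD of at least 0.3. These 10 values hold both treatments, so r covers the difference between treatments as well as that between genotypes, and it is given as a description. For Sox10 they were Klhl24 (r = 0.98), Cdh15 (0.97) and Rnf32 (0.97), with responses of -0.73, -0.55 and -0.60. For Prx they were Gask1a (0.996), Epdr1 (0.986) and Gtf2i (0.983). Mag was nearest to Aldh3a2, Klhl10 and Tril (each 0.98). Mbp was nearest to Tmprss11g (0.97), Csprs (0.96) and Clca3a2 (0.94), and Pmp22 to Mmp27, Rnf144a and Olfml1 (each 0.98). None of the 15 is another member or a gene of the glial lists. Members could still lie close to each other: on these probes Sox10 had r = 0.96 with Prx, 0.89 with Mag, 0.69 with Pmp22 and 0.47 with Mbp.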

How the data were processed

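Spot values were deposited as intensity, made by Agilent Feature Extraction 10.7.3.1 with background subtraction and detrending, per the file headers. Version 10.5.1.1 and limma are named in the submitters' processing notes. The authors also deposited a log2 table, normalized between arrays, used only as an alternative. Exons and UTRs are not given for probes, since no mm9 annotation was used here.

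Groups came from the sample labels. Processed signals were averaged over the spots of a probe, log2 transformed and quantile normalized with limma 3.58.1 in R 4.3.3. A filter kept probes that were well above background on 2 or more arrays, and 235 with outlier flags were left out, giving 37125. Each of 24080 genes was read on its probe of highest mean. The average response was fitted with limma on 10 group values with genotype as a block (4 residual degrees of freedom), and dependence on Tlr7 on 5 differences (3 residual degrees of freedom), with Benjamini-Hochberg adjustment over all probes and a threshold of 0.05. Fits were tested on simulated data, and all p-values are two-sided. The small number of arrays limits precision.

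The members and gene lists were chosen with earlier results of these data known. Named are all member probes, up to 6 called genes of largest size in a glial or nerve list, marker genes of glia and melanocytes whatever their value, and the 3 nearest genes of each member, except that some items are not reported here; others were named after their values were seen. Sizes of called genes above background on 6 arrays or fewer are left out, as decided once the data had been seen. Alternatives covered scaling, background correction, the deposited table, filters, 1 probe per gene, slide, repeat arrays and leaving out each genotype. Python 3.11.15 with pandas 2.3.3 read the files, and matplotlib 3.10.9 drew the figures.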

Additional observations from a re-analysis of the deposited data

Results flagged for a closer look

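A Prx value stood apart. On the probe A_52_P315837 the response in Tlr9-/- was -1.27, while the other 4 genotypes lay between -0.64 and -0.59. The gap to the nearest other value was 0.925 of the whole range, above Dixon's 95% critical value of 0.71 for 5 values. Chance alone exceeds that value in about 1 of 20 groups, and each of the 10 tested probes was examined. On the other Prx probe the Tlr9-/- response was -0.83, within the range of the rest.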

How the results depend on the processing

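Sox10 and the brighter Prx probe were called lower under all 16 alternatives, and no member probe changed the sign of its average response under any alternative run for it. The number of probes called, 8973, was 882 to 8701 when 1 genotype pair or repeat array was left out (882 without the Tlr9-/- pair, 2708 without Tlr7-/-, 4156 without WT, 5101 without Tlr7-/-Tlr9-/-, 7616 without Card14-/-), 18461 with 12 arrays and genotype and slide as blocks, and 14051 with 12 arrays as separate values; those last fits called 5 member genes lower and the leave-one-out fits 2 or 3. Mag on its brighter probe ranged from -0.83 to -0.68 without 1 pair or repeat. Mbp on its brightest probe passed the threshold with normexp (-0.28), with slide as a block (-0.37) and with 12 arrays as separate values (-0.29), and Pmp22 on its brighter probe with slide as a block (-0.31) and with 12 arrays as separate values (-0.26); the fits on 12 arrays count repeats as independent, and the cause of the normexp call was not tested. Pairs of gene and genotype at least 1 lower numbered 3 with normexp, against 5. In the Tlr7 comparison 1 probe, of no member, was called without the second repeat arrays, and 0 otherwise. The fits pair arrays by genotype, but by replicate number no paired analysis was possible because the groups compared share only number 1. With 1 untreated array per genotype, no genotype's own response has an error. Low signals lie nearer the background floor of 3.63 to 4.38 than most values of the other tested member probes. These are the Mag probes, at 5.92 to 7.28, and the Mbp probe A_52_P329451, at 6.93 to 7.68.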
